A study of Mus musculus with 12 samples.

Results

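Intracerebral hemorrhage (ICH) was induced in mice of 2 ages, and the expression of 35 genes of DNA replication and mitosis was followed in the injured striatum. The genes were selected by their symbols among the 54833 genes of the table, with earlier results of these data known. They comprise 9 S-phase genes, namely Mcm2 to Mcm7, Pcna, Rrm2 and Tk1, and 26 mitotic genes. E2f8, a transcription factor, and Ccna2, which acts in both S phase and mitosis, are counted with the mitotic genes. All 35 passed the filter on low counts, which left 21495 genes to test. RNA-seq was performed on 12 samples in 4 groups of 3, in which each age, young or aged, had a sham and an ICH group. All animals were male wild-type (WT) C57BL/6 mice, 8 to 10 weeks old in the young groups and 20 to 22 months old in the aged groups. ICH was induced with type IV collagenase, an enzyme that opens vessel walls by digesting their basement membrane, infused into the right basal ganglia, and sham mice received saline by the same surgery. Tissue around the hematoma in the ipsilateral caudate putamen was taken 24 h later. Each sample pooled several mice, so that variation between single animals is reduced but not removed. Collagenase injection is a model of bleeding into the striatum and not of spontaneous vessel rupture.

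Before S phase, the Mcm2 to Mcm7 proteins are loaded onto replication origins as a ring-shaped helicase. Pcna is the sliding clamp that tethers DNA polymerases, and Rrm2 and Tk1 make the deoxynucleotides. Mitotic genes are switched on later, in G2, when cyclin B and Cdk1 start chromosome condensation and spindle assembly, and their proteins are destroyed at the end of mitosis by the anaphase-promoting complex. Most cells of the adult striatum are neurons and glia that do not divide. Dividing cells in and near this tissue are mainly oligodendrocyte precursors, progenitors of the neighbouring subventricular zone and, after injury, microglia, endothelial cells and infiltrating leukocytes. In bulk tissue, more cells that express a gene and more RNA per cell cannot be told apart.

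The S-phase and mitotic genes differ in the short motifs of their promoters. RefSeq promoter windows (GRCm38.p6), each from 250 bases before to 50 bases after an annotated start, were available for 30 of the 35 genes, 8 S-phase and 22 mitotic. Mcm4, Aurkb, Ccna2, Kif20a and Tpx2 had no window. The motifs were searched on both strands. The first was the cell cycle genes homology region (CHR, TTTGAA or TTCGAA), bound by the DREAM and MuvB complexes in G2/M genes. The second was the CCAAT box (CCAAT), bound by NF-Y. The last was an E2F site. It was searched as TTCCCGC. It was also searched under the second common form, TTGGCGC. Another form searched was TTCGCGC. Of these the form TTGGCGC, read on the opposite strand, can share bases with a CCAAT box. The following windows are printed because their genes carry the results below. Mcm3 passed the test after ICH at both ages, Ube2c and Kif23 did so in aged mice, and Ccnb1 had the largest fold change. Capitals mark the motif letters found.
Mcm3: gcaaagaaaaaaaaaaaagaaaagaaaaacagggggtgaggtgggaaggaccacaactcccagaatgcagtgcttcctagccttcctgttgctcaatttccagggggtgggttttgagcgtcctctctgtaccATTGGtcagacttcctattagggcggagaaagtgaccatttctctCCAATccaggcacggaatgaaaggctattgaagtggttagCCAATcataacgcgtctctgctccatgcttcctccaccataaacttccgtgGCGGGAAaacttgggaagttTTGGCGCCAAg
Ube2c: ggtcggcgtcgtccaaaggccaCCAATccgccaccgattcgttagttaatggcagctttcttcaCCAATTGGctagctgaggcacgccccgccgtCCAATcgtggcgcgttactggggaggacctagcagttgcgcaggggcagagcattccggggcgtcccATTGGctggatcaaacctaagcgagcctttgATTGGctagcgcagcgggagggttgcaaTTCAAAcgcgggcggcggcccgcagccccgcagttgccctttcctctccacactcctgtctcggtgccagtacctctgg
Kif23: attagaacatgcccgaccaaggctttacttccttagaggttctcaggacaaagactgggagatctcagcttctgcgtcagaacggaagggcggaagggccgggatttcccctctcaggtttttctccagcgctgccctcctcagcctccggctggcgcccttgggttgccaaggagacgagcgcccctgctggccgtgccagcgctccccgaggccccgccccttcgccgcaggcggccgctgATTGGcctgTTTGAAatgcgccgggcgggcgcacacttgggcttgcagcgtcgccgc
Ccnb1: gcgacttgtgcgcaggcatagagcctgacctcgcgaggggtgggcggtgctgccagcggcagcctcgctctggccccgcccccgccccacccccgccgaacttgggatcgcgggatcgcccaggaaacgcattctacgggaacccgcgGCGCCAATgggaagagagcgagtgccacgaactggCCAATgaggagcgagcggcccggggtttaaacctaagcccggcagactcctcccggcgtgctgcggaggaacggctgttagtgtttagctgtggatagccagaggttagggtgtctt
The windows lie at chr1:20820263-20820562 (minus strand), chr2:164769679-164769978 (plus strand), chr9:61946750-61947049 (minus strand) and chr13:100786437-100786736 (minus strand), and each is written 5′ to 3′ along its gene. With the annotated start at position 0, the Ube2c window has CHR letters from position -29 and 6 CCAAT matches, and the Kif23 window has CHR letters from position 2, 9 bases after the start of a CCAAT match at -7. The Mcm3 window has no CHR letters and has E2F letters from positions 19, 39 and 42. The Ccnb1 window has CCAAT letters from -99 and -67 and no CHR letters, and its single E2F match overlaps the first CCAAT match.

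Among the 22 mitotic windows, CHR letters were found for 18 genes (81.8%) and CHR together with CCAAT for 17 (77.3%). Among 27025 genes in the promoter table the shares were 21.7% and 8.61%. Of the 8 S-phase genes, 2 (25.0%) had CHR letters, in Mcm2 and Mcm7. E2F letters that do not overlap CCAAT were found for 4 of 8 S-phase genes, Mcm3, Mcm5, Mcm6 and Mcm7, for 2 of 22 mitotic genes (9.09%), and for 8.78% of all genes. CCAAT letters were frequent in both classes, in 7 of 8 and 19 of 22 genes, against 41.1% of all genes. Birc5, Nusap1 and Tk1 had none of these motifs in the window. These are matches of letters in a window and not measured binding sites.

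In the GENCODE annotation of GRCm38, the genes called in any comparison below span chr6:88883474-88898780 (Mcm2, minus strand), chr1:20802968-20820312 (Mcm3, minus strand), chr16:15623897-15637400 (Mcm4, minus strand), chr12:24708241-24714146 (Rrm2, plus strand), chr11:117849251-117855743 (Birc5, plus strand), chr2:172356190-172370535 (Aurka, minus strand), chr13:100778650-100786570 (Ccnb1, minus strand), chr2:164769898-164778822 (Ube2c, plus strand), chr17:53674786-53689333 (Sgo1, minus strand) and chr9:61915905-61946774 (Kif23, minus strand). All are protein-coding, and of these only Ube2c overlaps another annotated gene.

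**Figure D1:**
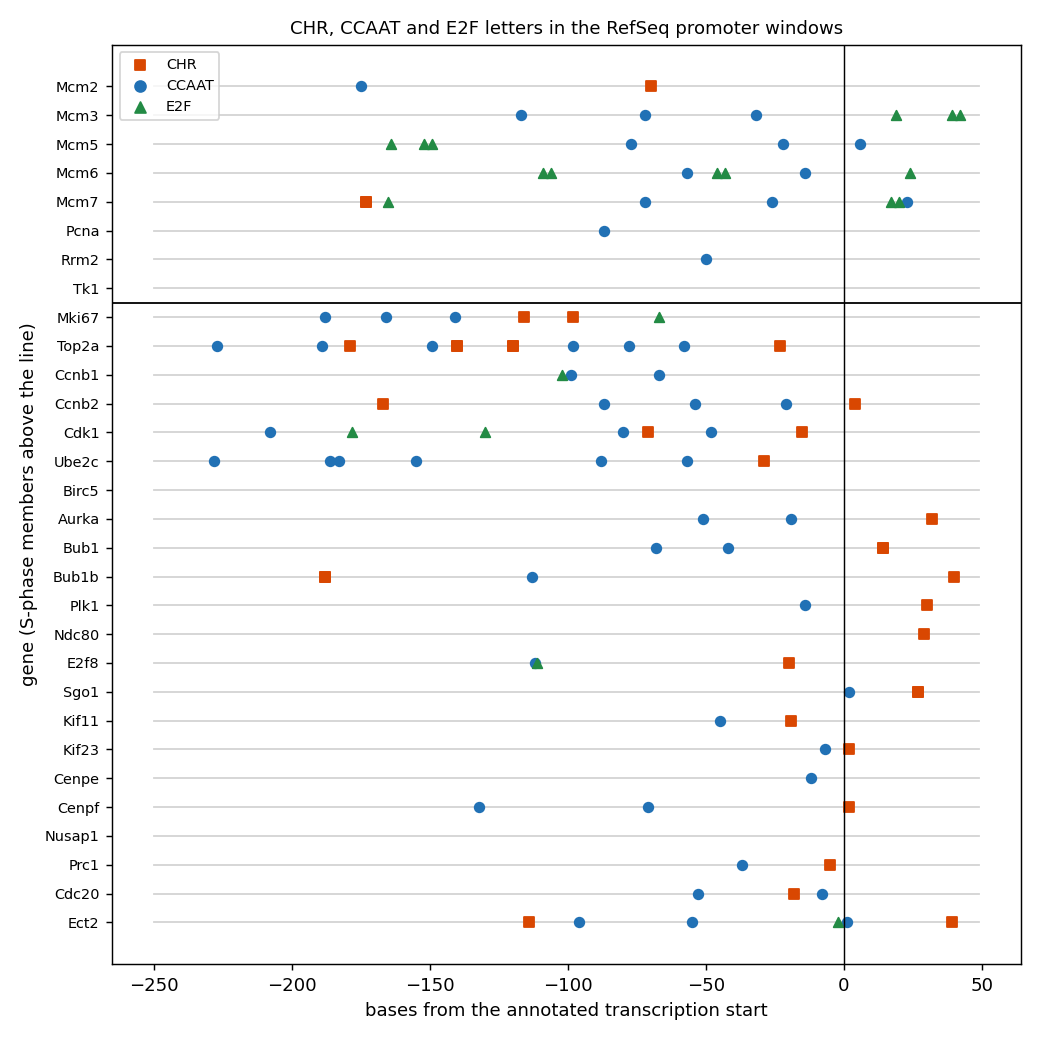
Positions of CHR (squares), CCAAT (circles) and E2F (triangles) letters in the promoter windows of 30 genes, in bases from the annotated start (vertical line), with S-phase genes above the horizontal line and mitotic genes below. For genes with several windows the first is drawn. CHR squares appear in 18 of the 22 mitotic rows and in 2 of the 8 S-phase rows.

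The libraries held 28410896 to 37785160 counts on genes. S-phase genes received 2908 to 6746 counts per library and mitotic genes 1454 to 3888. Levels are given as CPM, counts per 1000000 of the normalized library size, within a gene, and as the deposited FPKM, which is divided by gene length, between genes. In young sham striatum the median FPKM was 2.76 for S-phase genes, from 0.479 for Tk1 to 17.2 for Pcna, and 0.512 for mitotic genes, from 0.133 for Ndc80 to 1.4 for Nusap1. In young ICH the medians were 4.47 and 0.717, in aged sham 2.5 and 0.346, and in aged ICH 4.2 and 0.672. The mitotic genes were thus read from few counts. Ccnb1 had 38, 37 and 39 counts in the young sham libraries and 9, 10 and 4 in the aged sham libraries. The median coefficient of variation in young sham was 5.25% for S-phase and 13.2% for mitotic genes, and in young ICH it was 17.4% and 29.2%. It was 28.6% and 27.5% in aged sham and 9.09% and 28.7% in aged ICH.

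Libraries within a group differed in a way shared by most of these genes. In young ICH, replicate 2 had the lowest value in 9 of 9 S-phase and 23 of 26 mitotic genes, while over all genes tested it was the lowest in 35% of genes. In aged ICH, replicate 1 had the highest value in 25 of 26 mitotic and 7 of 9 S-phase genes, against 33.6% of all genes. In aged sham, replicate 1 was the highest for 9 of 9 S-phase and 17 of 26 mitotic genes, and replicate 2 was the lowest for 8 of 9 and 14 of 26. Dissection markers also varied between libraries. The summed CPM of 9 striatal neuron markers was 1235, 513.4 and 1725 in young ICH and 325.3, 1912 and 741.1 in aged ICH, against 1513 to 3024 in the sham libraries. That of 7 choroid plexus markers ranged from 12.65 in young ICH replicate 2 to 4081 in young ICH replicate 3. In aged ICH it was 1559, 1978 and 41.41 in replicates 1, 2 and 3, against 55.97 to 87.44 in aged sham. The part of these dissection markers in the values of the cell cycle genes was not tested. Striatal neuron markers were nonetheless present in every library.

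**Figure D2:**
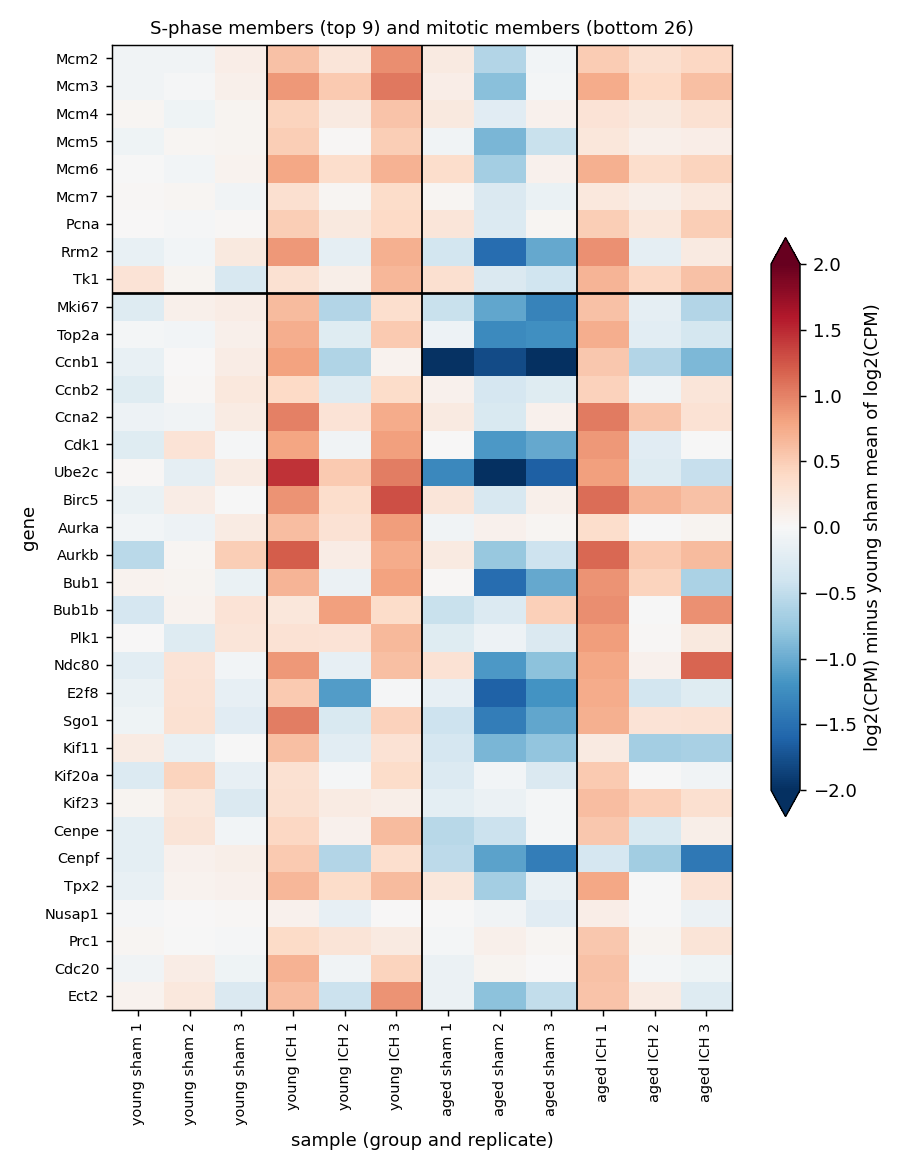
Level of the 35 genes in the 12 samples, as log2 CPM minus the mean log2 CPM of the 3 young sham samples, with red above and blue below young sham. Columns are samples by group, and the horizontal line separates the 9 S-phase genes from the 26 mitotic genes. Young ICH replicate 2 is paler or bluer than the other young ICH samples, and aged ICH replicate 1 is the reddest aged ICH sample.

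The first question was how ICH changed S-phase genes in young mice. 3 of the 9 genes rose, Mcm2, Mcm3 and Mcm4, and 0 fell, where 9.89% of all genes tested were called higher at an adjusted P under 0.05 (edgeR quasi-likelihood test) and 9.23% lower. All 9 had a log2 fold change (log2FC) above 0, as did 52.7% of all genes, with a median of 0.41 against 0.02 over all genes. Mcm3 had 10.2, 10.6 and 11.6 CPM in young sham and 19.7, 15.4 and 22.4 CPM in young ICH. Each young ICH sample was above each young sham sample, and the log2FC was 0.83 ± 0.21 (SE, n = 3 per group, edgeR adjusted P = 0.0196). Mcm2 had 9.51, 9.48 and 11 CPM in young sham and 14.9, 11.8 and 18.9 CPM in young ICH, again without overlap. Its log2FC was 0.61 ± 0.19 (edgeR adjusted P = 0.0476). Mcm4 rose by a log2FC of 0.41 ± 0.12 (edgeR adjusted P = 0.0341). Of the other S-phase genes, Mcm6 (0.62, adjusted P = 0.059) and Pcna (0.37, adjusted P = 0.0528) lay just above the threshold and their groups did not overlap. DESeq2 called both of these (adjusted P = 0.0234 and 0.0336). Mcm5, Mcm7, Rrm2 and Tk1 had log2FC of 0.35, 0.25, 0.53 and 0.36 and overlapping groups. In all, 5 of 9 S-phase genes were higher without overlap, against 18.5% of all genes. The call count rested on single libraries. It was 0 without replicate 3 of young ICH or without replicate 1 or 2 of young sham, 1 without young ICH replicate 1 or young sham replicate 3, 5 without aged sham replicate 1 or replicate 2, and 6 without young ICH replicate 2, while the median log2FC stayed between 0.36 and 0.52.

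In aged mice 2 of 9 S-phase genes rose after ICH, Mcm3 and Rrm2, and 0 fell, where 7% of all genes were called higher and 6.15% lower. All 9 had a log2FC above 0, as did 50.3% of all genes, and the median was 0.54 against 0.00 over all genes. Rrm2, the small subunit of ribonucleotide reductase, had 3.14, 1.42 and 2.01 CPM in aged sham and 7.67, 3.59 and 4.59 CPM in aged ICH. No aged ICH sample fell into the sham range, although replicate 1 was far above the others, and the log2FC was 1.27 ± 0.36 (n = 3 per group, edgeR adjusted P = 0.0378). Mcm3 had 11.8, 6 and 10.5 CPM in aged sham and 18, 14.2 and 16.4 CPM in aged ICH, a log2FC of 0.77 ± 0.21 (edgeR adjusted P = 0.0355). Mcm5 (0.59, adjusted P = 0.0553) and Pcna (0.39, adjusted P = 0.0549) missed the threshold narrowly by edgeR, and Tk1 (0.65), Mcm2 (0.54), Mcm6 (0.53), Mcm7 (0.30) and Mcm4 (0.23) did not pass it either. DESeq2 called Mcm5 (adjusted P = 0.0169), Pcna (0.0252), Tk1 (0.0434) and Mcm2 (0.0459) in addition. The groups did not overlap for 6 of 9 genes, against 17.8% of all genes. The count was 0 without replicate 1 or 3 of aged ICH, replicate 2 or 3 of aged sham, or replicate 2 of young sham. It was 1 without young sham replicate 3 and 5 without aged sham replicate 1 or young ICH replicate 2. The median log2FC was 0.35 without aged sham replicate 2 and 0.76 without aged sham replicate 1.

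**Figure D3:**
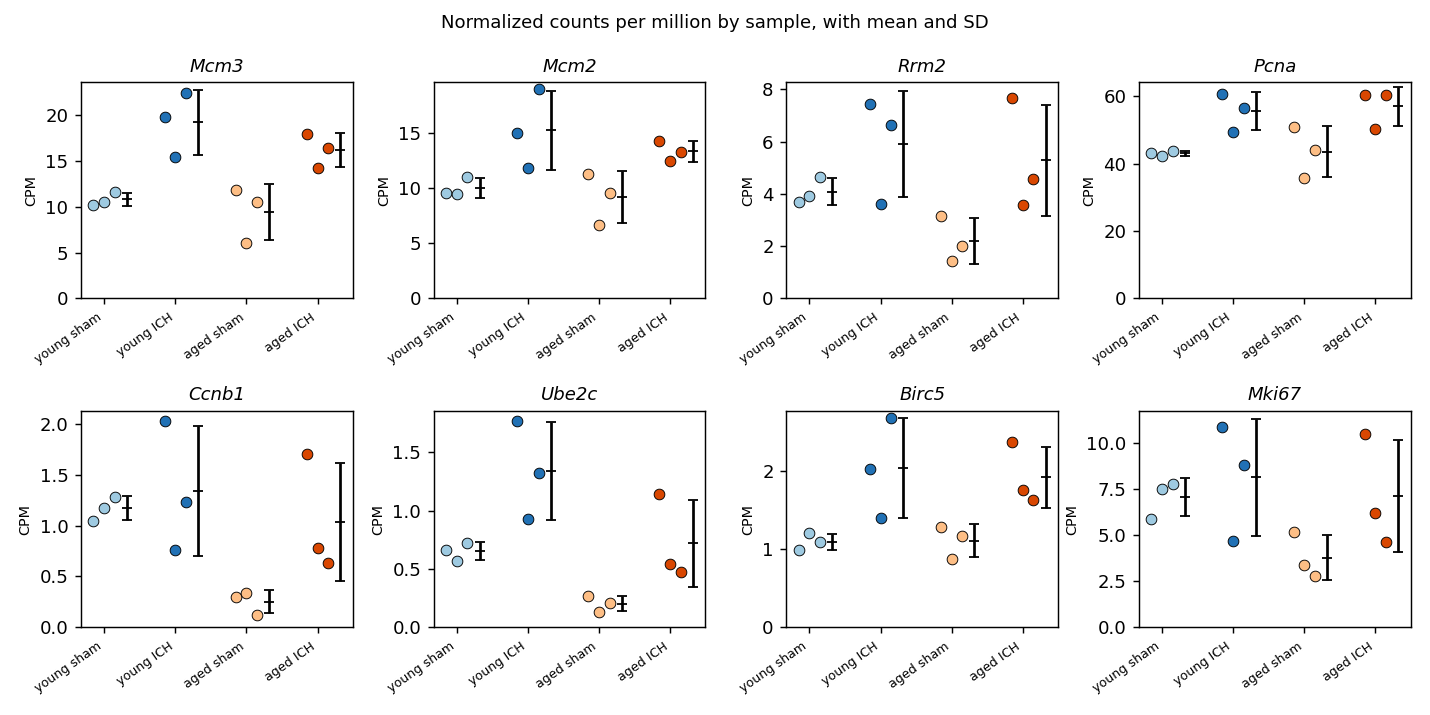
CPM of 4 S-phase genes (upper row) and 4 mitotic genes (lower row) in the 3 samples of each group (points, replicates 1 to 3 from left to right), with the mean and SD beside them. Mcm3 is higher in each ICH sample than in each sham sample of the same age, and Ccnb1 and Ube2c are lowest in the aged sham samples.

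The mitotic genes were compared in the same way. In young mice 2 of 26 rose after ICH, Birc5 and Aurka, and 0 fell, a share of 7.69% beside the 9.89% of all genes called higher. The log2FC was above 0 for 24 of 26, with a median of 0.40, and 7 of 26 were higher without overlap, against 18.5% of all genes. In aged mice 4 of 26 rose, Ccnb1, Ube2c, Sgo1 and Kif23, and 0 fell, a share of 15.4% beside 7% of all genes called higher. All 26 had a log2FC above 0, with a median of 0.66, and 8 of 26 were higher without overlap, against 17.8% of all genes. The threshold used in the study, FC > 1.5 with an unadjusted P under 0.05, was applied here to edgeR values, and by the study to DESeq2 values. Under it 4 mitotic genes were upregulated in young mice and 14 in aged mice, where 8.66% and 7.24% of all genes were. The S-phase counts under that threshold were 3 and 4. On DESeq2 values Aurka in young mice (log2FC 0.581) and Mcm5 in aged mice (0.578) fell just short, and E2f8 passed in aged mice (0.991). The young count of 2 was 0 when any one of young ICH replicates 1 and 3 and young sham replicates 1, 2 and 3 was left out, 1 without aged sham replicate 1, 2 or 3, and 4 when either replicate 2 of young ICH or replicate 1 of aged ICH was left out. The aged count of 4 was 0 without replicate 1 of aged ICH or either of replicates 2 and 3 of aged sham, and 2 without aged ICH replicate 3. The median log2FC was 0.46 without aged ICH replicate 1 in aged mice, and 0.24 without young ICH replicate 1 and 0.55 without young ICH replicate 2 in young mice.

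**Figure D4:**
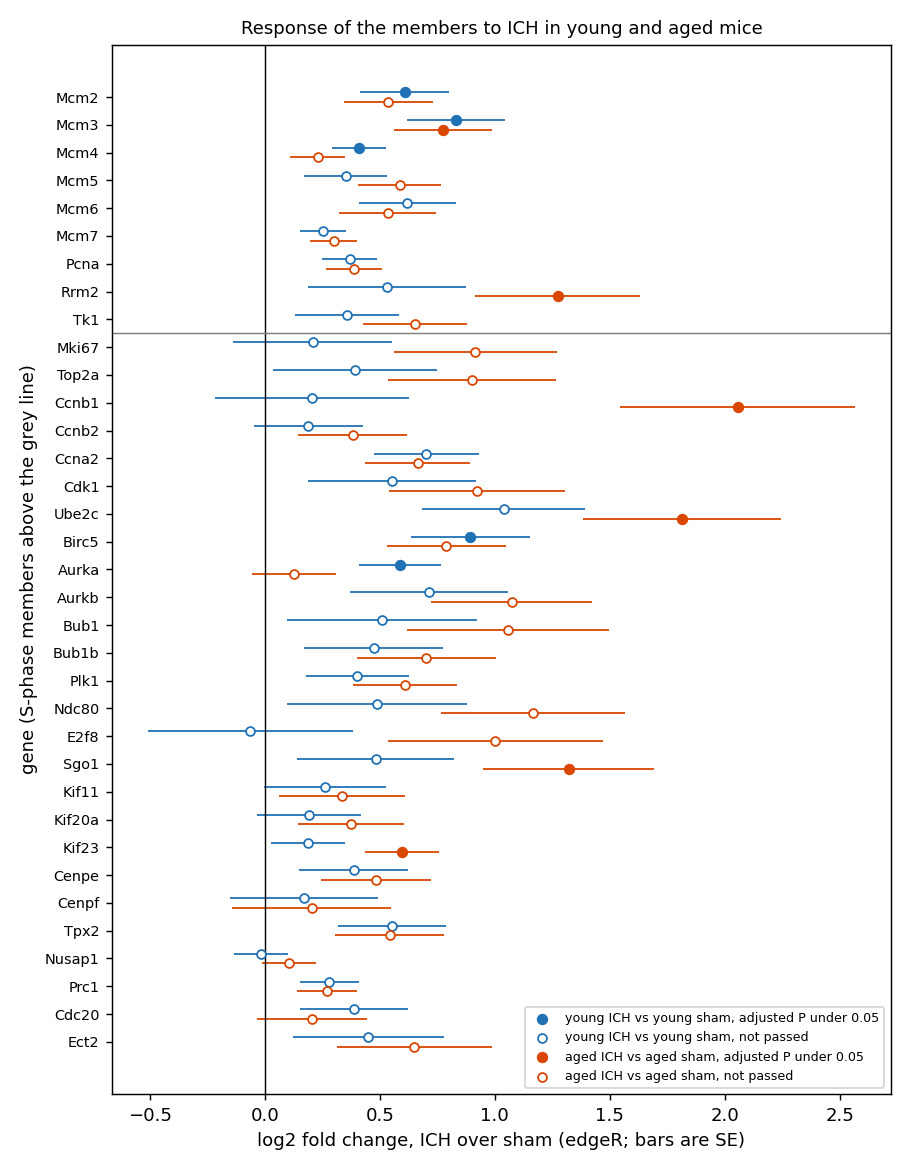
Log2 fold change of each gene after ICH, with its SE, in young mice (blue) and aged mice (orange), from the edgeR fit. Filled points passed an adjusted P of 0.05. All 35 orange points lie right of 0, and 33 of 35 blue points do, with Nusap1 and E2f8 at or below 0.

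Among the cyclins and their kinase, Ccnb1, the cyclin that drives entry into mitosis, stood out in aged mice. It had 0.298, 0.337 and 0.12 CPM in aged sham and 1.7, 0.779 and 0.628 CPM in aged ICH. The aged groups did not overlap, and the log2FC was 2.06 ± 0.51, a fold change of 4.16 (n = 3 per group, edgeR adjusted P = 0.0236). In young mice the sham samples had 1.05, 1.17 and 1.29 CPM and the ICH samples 2.03, 0.766 and 1.23 CPM, on both sides of sham, with a log2FC of 0.21 ± 0.42 (edgeR adjusted P = 0.77). The aged ICH values overlapped the range of the young samples, and the aged sham values were all below it. Without aged ICH replicate 1 the aged log2FC of Ccnb1 was 1.48 and did not pass (edgeR adjusted P = 0.113), and the call was also lost without aged sham replicate 1, 2 or 3. Ccnb2, a second B-type cyclin, had log2FC of 0.19 in young and 0.38 in aged mice. Ccna2, cyclin A, had 0.70 (adjusted P = 0.0508) and 0.66 (adjusted P = 0.0775), with non-overlapping groups at both ages, and DESeq2 called it at both (adjusted P = 0.0208 and 0.0346). Cdk1, their kinase partner, had 0.55 and 0.92, with overlap at both ages.

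Ube2c and Cdc20 both serve the anaphase-promoting complex, Ube2c as its ubiquitin-conjugating enzyme and Cdc20 as its activator. Ube2c had 0.265, 0.135 and 0.21 CPM in aged sham and 1.14, 0.542 and 0.471 CPM in aged ICH. Every aged ICH sample exceeded every aged sham sample, with a log2FC of 1.82 ± 0.43 (n = 3 per group, edgeR adjusted P = 0.0201). In young mice it had 0.663, 0.571 and 0.726 CPM in sham and 1.77, 0.932 and 1.32 CPM in ICH. These groups did not overlap either, and the log2FC was 1.04 ± 0.36 (edgeR adjusted P = 0.0617). Without aged ICH replicate 1 the aged log2FC was 1.30 (edgeR adjusted P = 0.0926), and the call was also lost without aged sham replicate 2 or 3. The Ube2c locus overlaps Tnnc2 on the other strand, and with the strand setting of the counting not given, shared reads cannot be told apart. Cdc20 had log2FC of 0.39 in young and 0.20 in aged mice and did not pass.

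Of the genes that hold sister chromatids or attach them to the spindle, Sgo1, which protects cohesin at centromeres, rose in aged mice. It had 0.463, 0.236 and 0.299 CPM in aged sham and 1, 0.745 and 0.754 CPM in aged ICH, with no overlap. The log2FC was 1.32 ± 0.37 (n = 3 per group, edgeR adjusted P = 0.0383), and 0.48 ± 0.34 in young mice (edgeR adjusted P = 0.357). The aged call was lost without aged sham replicate 1, 2 or 3, aged ICH replicate 1 or 3, or young sham replicate 1 or 3 (edgeR adjusted P up to 0.147). Ndc80, of the outer kinetochore, had log2FC of 0.49 in young and 1.17 in aged mice (adjusted P = 0.0778), and its aged groups overlapped, with 1.09, 0.405 and 0.509 CPM in sham and 1.53, 0.948 and 2.01 CPM in ICH. The checkpoint kinase Bub1 had 0.51 and 1.06, and its relative Bub1b 0.47 and 0.70. The kinetochore motor Cenpe had 0.39 and 0.48 and Cenpf 0.17 and 0.20. By edgeR these genes other than Sgo1 did not pass an adjusted P of 0.05 at either age, while DESeq2 called Ndc80 in aged mice (log2FC 1.16, DESeq2 adjusted P = 0.0411).

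Birc5 (survivin), a subunit of the chromosomal passenger complex, rose in young mice. It had 0.995, 1.21 and 1.09 CPM in young sham and 2.03, 1.4 and 2.68 CPM in young ICH, without overlap, a log2FC of 0.89 ± 0.26 (n = 3 per group, edgeR adjusted P = 0.0332). The call was lost without young sham replicate 1, 2 or 3 or young ICH replicate 1 or 3 (edgeR adjusted P up to 0.128). In aged mice it had 1.29, 0.877 and 1.17 CPM in sham and 2.37, 1.76 and 1.63 CPM in ICH, also without overlap, a log2FC of 0.79 ± 0.26 (edgeR adjusted P = 0.0666). Between the sham groups its log2FC was 0.02 ± 0.27, aged over young. Aurkb, the kinase of the same complex, had log2FC of 0.71 and 1.07 and was called in aged mice by DESeq2 (adjusted P = 0.0306) but not by edgeR. Aurka, the spindle pole kinase, rose in young mice with 1.74, 1.68 and 2.01 CPM in sham and 2.76, 2.2 and 3.21 CPM in ICH, a log2FC of 0.59 ± 0.18 (edgeR adjusted P = 0.0399). This call was kept in 3 of the 12 fits that each left out 1 sample (edgeR adjusted P up to 0.144). In aged mice its groups overlapped and the log2FC was 0.13 ± 0.18 (edgeR adjusted P = 0.689). Its activator Tpx2 had 0.55 and 0.54, and Plk1, another mitotic kinase, had 0.40 and 0.61.

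Kif23, a motor of the central spindle needed for cytokinesis, rose in aged mice from 2.15, 2.26 and 2.4 CPM in sham to 3.79, 3.42 and 3.08 CPM in ICH. These groups did not overlap, and the log2FC was 0.60 ± 0.16 (n = 3 per group, edgeR adjusted P = 0.033), against 0.19 ± 0.16 in young mice (edgeR adjusted P = 0.449). The aged call was lost when any 1 of the 6 aged samples was left out (edgeR adjusted P up to 0.139) and without the filter on low counts. The other spindle and cytokinesis genes did not pass at either age by edgeR or DESeq2. Log2FC in young and aged mice were 0.26 and 0.34 for Kif11, 0.19 and 0.38 for Kif20a, 0.28 and 0.27 for Prc1, 0.45 and 0.65 for Ect2, and -0.02 and 0.11 for Nusap1, the mitotic gene with the highest FPKM in sham tissue. Prc1 and Nusap1 overlap other genes, as do Kif20a and Cdc20. The widely used proliferation markers Mki67 and Top2a had log2FC of 0.21 and 0.39 in young and 0.92 and 0.90 in aged mice. Mki67 had 5.89, 7.52 and 7.79 CPM in young sham, 10.9, 4.69 and 8.82 in young ICH, 5.16, 3.41 and 2.78 in aged sham and 10.5, 6.2 and 4.65 in aged ICH. Sham and ICH samples overlapped at both ages, and the adjusted P values were 0.714 and 0.113 (edgeR). DESeq2 called Mki67 in aged mice (log2FC 0.90, DESeq2 adjusted P = 0.0434). E2f8, a repressor of E2F targets, had fold changes of 0.957 and 2 with overlap at both ages (edgeR adjusted P = 0.939 and 0.179).

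The effect of age was next examined without hemorrhage. In aged sham vs. young sham, 0 of 35 genes were called at an adjusted P under 0.05 by edgeR, where 0.102% of all genes were. At an unadjusted P under 0.05 there were 2 S-phase and 6 mitotic genes, beside 12.3% of all genes, and DESeq2 called 1 gene, Ccnb1 (log2FC -2.24, DESeq2 adjusted P = 0.00779). By edgeR the log2FC of Ccnb1 was -2.22 ± 0.51 (n = 3 per group, adjusted P = 0.164), a fold change of 0.215, and that of Ube2c was -1.66 ± 0.43 (adjusted P = 0.197). For both, all 3 aged sham samples were below all 3 young sham samples. This was so for 7 of 26 mitotic genes and 1 of 9 S-phase genes, against 11.2% of all genes. Under the study's threshold (FC < 0.67 with an unadjusted P under 0.05), 6 mitotic genes, Mki67, Ccnb1, Ube2c, Sgo1, Kif11 and Cenpf, and 1 S-phase gene, Rrm2, were downregulated, beside 0.898% of all genes. Their log2FC, other than those of Ccnb1 and Ube2c, were -0.66 to -0.95. The log2FC was below 0 for 23 of 26 mitotic genes, with a median of -0.33, and for 7 of 9 S-phase genes, with a median of -0.12, while over all genes 51.7% were above 0. Leaving out 1 library moved these medians to between -0.51 and -0.28 and to between -0.30 and 0.05. The S-phase median was above 0 without aged sham replicate 2.

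Between the ICH groups, 0 of 35 genes were called (edgeR), where 0.0558% of all genes were. At an unadjusted P under 0.05 there were 0 S-phase and 4 mitotic genes, beside 9.54% of all genes, and DESeq2 called 0. Ube2c (log2FC -0.89 ± 0.35, adjusted P = 0.461), Kif11 (-0.59) and Cenpf (-0.92) were lower in aged ICH under the study's threshold, beside 1.3% of all genes. The median log2FC was -0.15 for S-phase and -0.11 for mitotic genes, and the latter ranged from -0.36 without aged ICH replicate 1 to 0.02 without aged ICH replicate 3. The comparison of the sham groups and that of aged ICH with aged sham share the aged sham samples, whose low values enter both.

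Whether the response to ICH itself differed with age was tested as an interaction. By edgeR 0 of 35 genes passed, as did 0% of all genes, and 2.82% of all genes had an unadjusted P under 0.05. Among the 35 this was Ccnb1 alone, with a difference of log2FC of 1.85 ± 0.67 (edgeR adjusted P = 1), and it was also the 1 mitotic gene past the study's threshold, as were 0.484% of all genes. DESeq2 called 0. Without aged ICH replicate 1 the difference for Ccnb1 was 1.28, and its unadjusted P was then above 0.05, and without young ICH replicate 1 it was 2.28. The log2FC after ICH was larger in aged than in young mice for 20 of 26 mitotic genes and 5 of 9 S-phase genes, as for 48.9% of all genes, with median differences of 0.20 and 0.02. The mitotic median was 0.01 without aged ICH replicate 1. More mitotic genes were called in aged than in young mice with all samples (4 and 2), but the order was reversed without aged ICH replicate 1 (0 and 4) and without aged sham replicate 2 or 3 (0 and 1 in each), and a difference between the ages was not shown for any single gene after adjustment.

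The mean log2 CPM over all genes of a class gives each sample's level. For mitotic genes it was 1.01, 1.20 and 1.15 in young sham, 1.74, 1.07 and 1.62 in young ICH, 0.90, 0.44 and 0.55 in aged sham and 1.74, 1.11 and 1.11 in aged ICH. Aged sham was the lowest group without overlap with the others, young ICH overlapped young sham through replicate 2, and aged ICH overlapped both young groups. For S-phase genes it was 3.50, 3.49 and 3.53 in young sham, 4.08, 3.67 and 4.16 in young ICH, 3.62, 2.89 and 3.30 in aged sham and 4.03, 3.72 and 3.88 in aged ICH. Here both ICH groups lay above both sham groups without overlap.

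**Figure D5:**
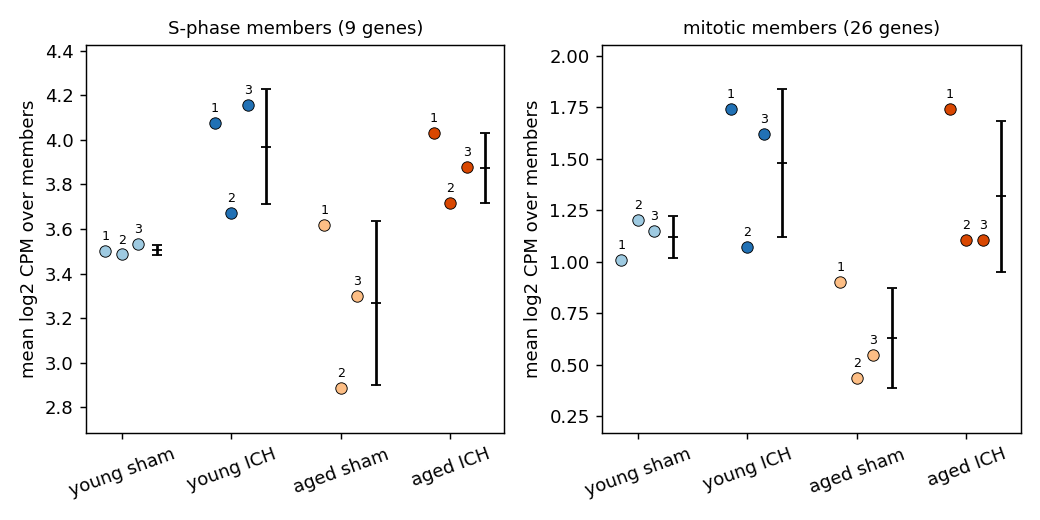
Mean log2 CPM over the 9 S-phase genes (left) and the 26 mitotic genes (right) in each sample, labelled by replicate, with the mean and SD of each group of 3 beside the points. Mitotic means run from 0.44 to 0.90 in aged sham and from 1.01 upward in the other groups, and S-phase means are at or above 3.67 in all ICH samples and at or below 3.62 in all sham samples. The vertical axes do not start at 0.

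Other genes of the same processes were counted from lists of 32 replication and 52 mitotic genes, all tested. Of the replication genes, 8 rose in young ICH (25%) and 3 in aged ICH (9.38%), and 0 fell, beside 9.89% and 7% of all genes called higher. In young mice the smallest P values belonged to Gins1 (log2FC 1.02), of the replicative helicase, the DNA ligase Lig1 (0.42), the origin loading factor Cdc6 (1.07), the helicase cofactor Cdc45 (0.48) and the histone chaperone subunit Chaf1b (1.04). In aged mice they were Cdc45 (0.56), Uhrf1 (1.07), which links DNA methylation to replication, and Gins2 (1.07). Of the mitotic genes 4 (7.69%) were called higher in young ICH and 3 (5.77%) in aged ICH, both below the shares of all genes. In young mice these were the condensin subunits Smc4 (0.54) and Smc2 (0.37), the spindle protein Tacc3 (0.57) and the motor Kif14 (0.73). In aged mice they were Kif14 (1.05), Smc4 (0.48) and the cohesin regulator Cdca5 (1.46). The median log2FC was 0.39 and 0.25 for the replication list and 0.44 and 0.48 for the mitotic list in young and aged mice. None of either list was called by edgeR between the ages or for the interaction. At an unadjusted P under 0.05 the replication list had 1 gene between the sham groups, 0 between the ICH groups and 1 for the interaction, and the mitotic list had 8, 5 and 0, beside 12.3%, 9.54% and 2.82% of all genes.

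Regulators upstream of S phase were also called at both ages. Over all genes, 9.89% were called higher and 9.23% lower in young ICH, and 7% and 6.15% in aged ICH. Of 14 cyclins, kinases and activating factors of the G1 to S transition, 5 rose in young ICH, Ccnd1 (log2FC 0.62), Ccnd3 (0.62), Cdk2 (0.73), Cdk4 (0.36) and Myc (1.12), and Ccne1 fell by 0.45. In aged ICH 5 rose, Ccnd1 (0.69), Ccnd3 (0.54), Cdk4 (0.30), Cdk6 (0.72) and Myc (0.93), and 0 fell. Ccnd2, the third D cyclin, was not called in any comparison (-0.08 in young and 0.15 in aged mice after ICH, and -0.38 in aged vs. young sham with an edgeR adjusted P of 0.186). Of 10 CDK inhibitors and pocket proteins, 1 was called higher at each age, near the share of all genes. This was Cdkn1a (p21), which arrests the cycle. It had 32.9, 20.1 and 29.5 CPM in young sham, 71.1, 60.4 and 56.3 in young ICH, 21.3, 23.2 and 24.3 in aged sham and 60.7, 61.3 and 65.5 in aged ICH. The ICH samples were far above the sham samples at both ages, with log2FC of 1.19 ± 0.15 (edgeR adjusted P = 0.00137) and 1.45 ± 0.15 (edgeR adjusted P = 0.00157). The pocket protein Rbl2 fell by 0.31 in aged mice. Cdkn2a, an inhibitor known to accumulate with age and named after its values were seen, had 0.0829, 0.0317 and 0 CPM in young sham and 0.331, 0.236 and 0.329 CPM in aged sham, which is few counts, and was not called (edgeR adjusted P = 0.192).

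Markers of cell types that could hold dividing cells were counted in the same way, beside 9.89% of all genes called higher and 9.23% lower in young ICH and 7% and 6.15% in aged ICH. Of 9 mature neutrophil markers, 9 rose in young ICH and 8 in aged ICH. Their summed CPM went from 31 to 40.36 in young sham to 148 to 334.9 in young ICH, and from 23.57 to 67.11 in aged sham to 182.1 to 229 in aged ICH. Elane, Mpo and Ctsg, granule genes of dividing neutrophil precursors, were at or below 0.251 CPM in every library. Of the 9 genes of that list 4 could be tested, and only Chil3, which is also on the monocyte list, rose, at both ages. The summed CPM of the 9 genes was low but higher after ICH without overlap. It was 1.354 to 1.523 in young sham, 5.483 to 9.686 in young ICH, 3.012 to 6.259 in aged sham and 15.53 to 18.32 in aged ICH. Between the ages 0 of the 4 tested genes were called, where 0.102% of all genes were in sham and 0.0558% in ICH. Their median log2FC, aged over young, was 2.57 in sham and 1.79 in ICH, against 0.01 and -0.005 over all genes. Of 10 monocyte and macrophage markers, 6 rose in young and 5 in aged mice, with summed CPM of 54.55 to 59.43 in young sham, 113.7 to 165.2 in young ICH, 55.47 to 114.3 in aged sham and 161.1 to 194.2 in aged ICH. Of 9 endothelial markers, 6 rose in young and 4 in aged mice. Of 10 homeostatic microglia markers, 0 rose and 2 fell in young mice, and 1 rose and 2 fell in aged mice. Astrocyte markers rose for 4 of 8 in young mice and 3 of 8 in aged mice, where 1 fell. Among 10 T cell and NK cell markers 7 could be tested, and 2 rose in young and 0 in aged mice. For erythroblasts and red blood cells 5 of 8 could be tested, and 3 rose in young and 0 in aged mice. The B cell list had 1 testable marker of 6, which was not called.

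The markers of oligodendrocyte precursors and of the subventricular zone were counted next. Of 10 precursor markers, 0 rose and 1 fell (Tnr, -0.70) in young ICH and 0 rose and 3 fell in aged ICH, among them Gpr17 (-1.19, edgeR adjusted P = 0.00955). Gpr17, picked as the marker with the lowest log2FC, was also lower in aged ICH than in young ICH (-1.83, edgeR adjusted P = 0.0174). In that comparison 10 of 10 precursor markers were below 0, with a median of -0.40, and 1 was called. The summed CPM of the list was 652.1 to 750 in young sham, 537.2 to 645.6 in young ICH, 583.6 to 713.4 in aged sham and 425.5 to 499.3 in aged ICH. Of 10 subventricular markers, 2 rose (Nes, 2.24, and Sox11, 0.56) and 3 fell in young ICH, and Nes rose in aged ICH (1.67). Nes, an intermediate filament of progenitors, is also made by reactive astrocytes and growing vessels. The summed CPM was 415 to 444.1 in young sham, 401.9 to 460.4 in young ICH, 369.5 to 388.7 in aged sham and 429.1 to 453.3 in aged ICH. By this sum aged sham was the lowest group and the aged groups did not overlap. The single markers did not move together at either age. In young ICH 4 of the 10 had a log2FC above 0 and 6 below, with a median of -0.15 and a minimum of -0.90. In aged ICH 5 of the 10 had a log2FC above 0 and 5 below, with a median of -0.005. No marker on these lists was at 0 in all libraries. The part of any of these cell types in the levels of the replication and mitotic genes was not tested.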

How the data were processed

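RNA-seq libraries of pooled perihematomal striatum (12 samples, 3 per group) were analysed from one table. The authors deposited raw counts per gene and FPKM, made by aligning paired reads to GRCm38.p6 with Hisat2 and counting with FeatureCounts. The strand setting and the treatment of multiply mapped reads are not given in the sources used here, so genes that overlap others, such as Mcm7, Tk1, Ube2c and Nusap1, may share reads. All 24 value columns were assigned to samples by name. Counts per gene were tested with edgeR 4.0.16 (R 4.3.3, limma 3.58.1; glmQLFit and glmQLFTest, TMM normalization, filterByExpr with a minimum count of 10), with all 12 samples and 4 groups in one fit. A gene was called at a Benjamini-Hochberg adjusted P under 0.05 over all 21495 genes tested. The SE was derived from the log2FC and its F statistic. CPM used TMM library sizes, and log2 CPM a prior count of 2. The deposited FPKM were used only to compare levels between genes. Alternatives were DESeq2 1.42.0, its size factors in edgeR, no filter, the 6 samples compared alone, a replicate block, and each sample left out. The study's threshold, put on the edgeR values, was a further alternative. The code was tested on simulated data. No 2 libraries of a group were copies of each other. P-values measure the spread between pooled samples. Promoter letters were searched in RefSeq windows (GRCm38.p6), and gene positions come from GENCODE for GRCm38.

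The genes and lists were chosen with earlier results of these data known. The study itself picked out Mki67, Ccnb1, Ndc80, Ube2c, E2f8, Rrm2 and Sgo1 (there named Sgol1) on these samples, so no list is independent evidence. All 35 genes could be named. From the other pathway lists up to 5 genes per direction with the smallest adjusted P under 0.05 were named, always with Cdkn1a and the D cyclins. Single cell type markers were named outside this rule, by their values.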

Additional observations from a re-analysis of the deposited data

How the results depend on the processing

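All 11 calls kept a positive log2FC in each of the 18 settings, but the counts depended on the setting. DESeq2 called 5 S-phase and 3 mitotic genes in young mice, in aged mice 6 and 8, and 1 mitotic gene in aged vs. young sham. Under the study's threshold, put on edgeR values, the counts were 3 and 4 for young and 4 and 14 for aged ICH. They were 1 and 6 in aged vs. young sham and 0 and 3 in aged vs. young ICH. Put on the interaction contrast, which the study's own rule did not use, the threshold gave 0 and 1. Without the filter on low counts 5 S-phase genes were called in young and 4 in aged mice. With only the 6 samples compared, the young mitotic count and the aged S-phase count were both 0. Leaving out each sample gave 0 to 6 S-phase and 0 to 4 mitotic genes in young mice, 0 to 5 and 0 to 6 in aged mice, and 0 to 0 in both age comparisons and the interaction. Each of the 11 calls was lost without at least 1 of the samples. Their highest adjusted P values with 1 sample left out (edgeR) were, in young mice, 0.0722 for Mcm3, 0.126 for Mcm4, 0.128 for Birc5, 0.144 for Aurka and 0.175 for Mcm2, and in aged mice 0.0926 for Ube2c, 0.113 for Ccnb1, 0.132 for Mcm3, 0.139 for Kif23, 0.147 for Sgo1 and 0.171 for Rrm2. Counts were low for some called genes, and Ccnb1 had 4 to 10 in the aged sham libraries. The cause of these changes was not tested.

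The replicate numbers of the labels do not mark shared animals. Deviations of ICH and sham samples with the same number correlated at 0.0741, 0.165 and -0.222 in young and at 0.0915, 0.235 and -0.0995 in aged mice, so the samples were not treated as paired. With a replicate block the S-phase count was 5 in young and 6 in aged mice, the mitotic counts were 3 and 4, and Aurka lost its call (adjusted P = 0.0535, edgeR).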
